A study of Mus musculus with 9 samples.

Results

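Abdominal and subcutaneous adipose-derived stem cells (ASCs) were compared by mRNA sequencing, gene by gene. The members are the 6 libraries of these depots out of 9 in the series: 3 of Ab-ASCs, grown from abdominal adipose tissue, and 3 of Sub-ASCs, grown from subcutaneous adipose tissue. All were cultured ASCs of C57BL/6 mice with no gene edit or drug named in the labels, which give no age either. The study states passages 3 to 6 and a medium with fetal serum, LIF and FGF. The other 3 libraries, of perivascular ASCs (PVASCs), did not enter the comparison. Whether the 3 libraries of a depot came from separate mice or cultures is not stated, so the p-values measure the spread between these libraries, which may be technical.

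Subcutaneous fat lies under the skin, and abdominal fat lies within the body cavity, where its outer surface is lined by mesothelium. Each depot holds stromal progenitors that attach to plastic, divide in culture and can be driven into adipocytes. Such progenitors are known to keep marks of their place of origin in culture, among them their Hox code, and they secrete much of the matrix, complement and cytokines of the tissue.

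The libraries held 23781019 to 26872579 reads for Sub-ASCs and 20524173 to 23832828 for Ab-ASCs, so that 3 reads equalled 0.11 to 0.15 CPM (reads scaled to a common library size, with TMM factors). The groups parted on the first principal component, which held 93.8% of the variance. On the second, with 2.78%, Ab-ASC replicate 1 stood apart at 34.6, whereas Ab-ASC replicates 2 and 3 were at -23.1 and -12.9. Libraries varied more within Ab-ASCs, with a biological coefficient of variation of 12.4%, than within Sub-ASCs, with 5.68%.

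Of 54532 genes, 15631 had enough reads to test. By edgeR's quasi-likelihood test with a Benjamini-Hochberg adjusted p under 0.05, 11715 of them (74.9%) differed between the depots. In Ab-ASCs 5649 genes (36.1%) were higher and 6066 (38.8%) lower. Against a change of 2-fold (the 2-fold test), 4419 genes (28.3%) passed, with 1897 (12.1%) higher and 2522 (16.1%) lower. For 12275 genes (78.5%) no Ab-ASC library overlapped any Sub-ASC library in CPM. The median log2 fold change of Ab-ASCs over Sub-ASCs was -0.05 over all genes, and these shares and this median are the background against which the counts of each gene list below are read. Genes past the 2-fold test in the higher direction took 27.8% to 28.3% of the reads of Ab-ASC libraries and 6.37% to 6.46% of those of Sub-ASC libraries. Those in the lower direction took 4.79% to 5.01% and 29.6% to 29.8%. Without Ab-ASC replicate 1, 6016 genes were higher and 6256 lower.

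**Figure D1:**
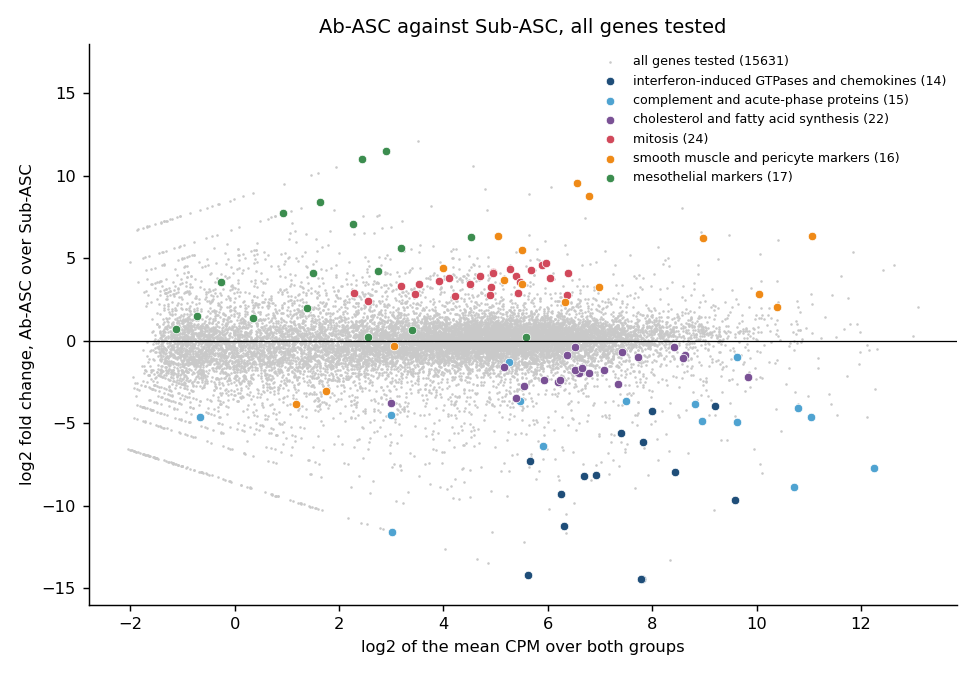
Log2 fold change of Ab-ASCs over Sub-ASCs against the log2 of the mean CPM over both groups, with 1 point for each of the 15631 genes tested (grey) and the members of 6 lists in colour. The interferon-induced, complement and lipid synthesis lists lie below 0, and the mitosis list and most mesothelial and smooth muscle markers above it. For genes without reads in a group the fitted fold depends on the prior count and is no measured size.

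First, the labelled cell type was checked against surface markers of mesenchymal stem cells and progenitors. Thy1 (CD90) was at 319, 309.8 and 331 CPM in the Sub-ASC libraries and 240.2, 204 and 215 CPM in the Ab-ASC libraries, and Eng (CD105), a TGF-beta coreceptor, at 99.8, 109 and 104 CPM in the Sub-ASC libraries and 144, 129.7 and 141 CPM in the Ab-ASC libraries. Both were thus well expressed in every library, Thy1 lower and Eng higher in Ab-ASCs. Pdgfra, the receptor that marks adipose progenitors, was at 2548, 2708 and 2559.8 CPM in the Sub-ASC libraries and 411, 425 and 430.5 CPM in the Ab-ASC libraries, 6.17-fold lower in Ab-ASCs (log2 fold change -2.63, SE 0.0502). Ly6a (Sca-1), a common mouse progenitor antigen, was at 2049, 1852 and 2009.8 CPM in the Sub-ASC libraries and 23.9, 19.1 and 19 CPM in the Ab-ASC libraries. It was 95.4-fold lower in Ab-ASCs, and the groups were far apart. Ngfr (CD271), another progenitor marker, was at 206, 198 and 203 CPM in the Sub-ASC libraries and 0.55, 0.601 and 0.856 CPM in the Ab-ASC libraries. In contrast, Cd44 (1.27) and Alcam (2.28), adhesion receptors whose values in parentheses are log2 fold changes, as for all genes below, were higher in Ab-ASCs.

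Among the 20 adipose progenitor markers, 6 were higher and 12 lower in Ab-ASCs, with a median of -1.07. Of 6 genes that mark the interstitial progenitors of subcutaneous fat, 4 were lower and 2 higher. Among them Pi16 was at 826, 794 and 844 CPM in the Sub-ASC libraries and 8.3, 6.78 and 7.49 CPM in the Ab-ASC libraries and Dpp4 at 68.3 ± 2.08 CPM in Sub-ASCs and 8.12 ± 2.05 CPM in Ab-ASCs (SD, n = 3), and Cd55 (-1.28) and Sema3c (-1.85) were lower too, whereas Wnt2 (5.41) and Anxa3 (1.59) of the same population were higher. Cd34, a general progenitor antigen, was lower at 123 ± 2.71 CPM in Sub-ASCs and 13.3 ± 1.1 CPM in Ab-ASCs. Also higher in Ab-ASCs were Mgp (6.44), which encodes an inhibitor of calcification, Dlk1 (2.98), F3 (0.93) and Vit (1.36). Mgp was at 110, 92 and 93.8 CPM in the Ab-ASC libraries and 1.11, 1.14 and 1.14 CPM in the Sub-ASC libraries. F3 (CD142) marks progenitors that restrain adipogenesis, and it was at 404, 441 and 422 CPM in the Ab-ASC libraries and 219.9, 228 and 218 CPM in the Sub-ASC libraries. Fmo2, another member of the list, went the other way, at 155 ± 10.2 CPM in Sub-ASCs and 1.59 ± 0.255 CPM in Ab-ASCs. Fmo2 was thus 96.4-fold lower in Ab-ASCs.

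Markers of other cell types that the cultures could hold were summed for each library, and their part in the results below was not tested. Smooth muscle and pericyte markers summed to 906 to 941 CPM in Sub-ASCs and 10074 to 10813 CPM in Ab-ASCs, and mesothelial markers to 59.9 to 64.2 CPM and 201 to 211 CPM. Endothelial markers summed to 234 to 250.5 CPM in Sub-ASCs and 103 to 108 CPM in Ab-ASCs, with 12 of 14 lower and 1, Flt1 (1.39), higher in Ab-ASCs. Among them, the junction genes Pecam1 and Cdh5 were at 43.6 ± 1.77 CPM in Sub-ASCs and 11.9 ± 1.02 CPM in Ab-ASCs and 44.7 ± 2.44 CPM in Sub-ASCs and 16.4 ± 0.807 CPM in Ab-ASCs. Leukocyte markers summed to 356 to 367 CPM and 349 to 435 CPM, ranges that overlapped. Of 13 tested, 9 were lower, among them Ptprc (CD45) at 8.59 ± 0.981 CPM in Sub-ASCs and 1.35 ± 0.26 CPM in Ab-ASCs and Adgre1 (F4/80) at 13.3 ± 0.344 CPM in Sub-ASCs and 6.93 ± 0.547 CPM in Ab-ASCs, and 2, Csf1r (0.94) and Lyz2 (0.72), were higher. Csf1r overlaps Hmgxb3 on the opposite strand, so some of its reads are uncertain. The T cell marker Cd3e was too low to test, with 7, 7 and 7 reads in Sub-ASC libraries and 0 in Ab-ASC libraries. Schwann and neuronal markers summed to 30.9 to 33.7 CPM and 204 to 208 CPM, which rested on Ncam1 at 161 ± 1.93 CPM in Ab-ASCs, whereas Sox10, which defines Schwann cells, was at 0.614 ± 0.224 CPM in Sub-ASCs and 0.241 ± 0.151 CPM in Ab-ASCs. Mature adipocyte markers summed to 17.6 to 20.2 CPM in Sub-ASCs and 0.214 to 0.5 CPM in Ab-ASCs. In bulk libraries, fewer cells of a type and less RNA per cell cannot be told apart.

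**Figure D2:**
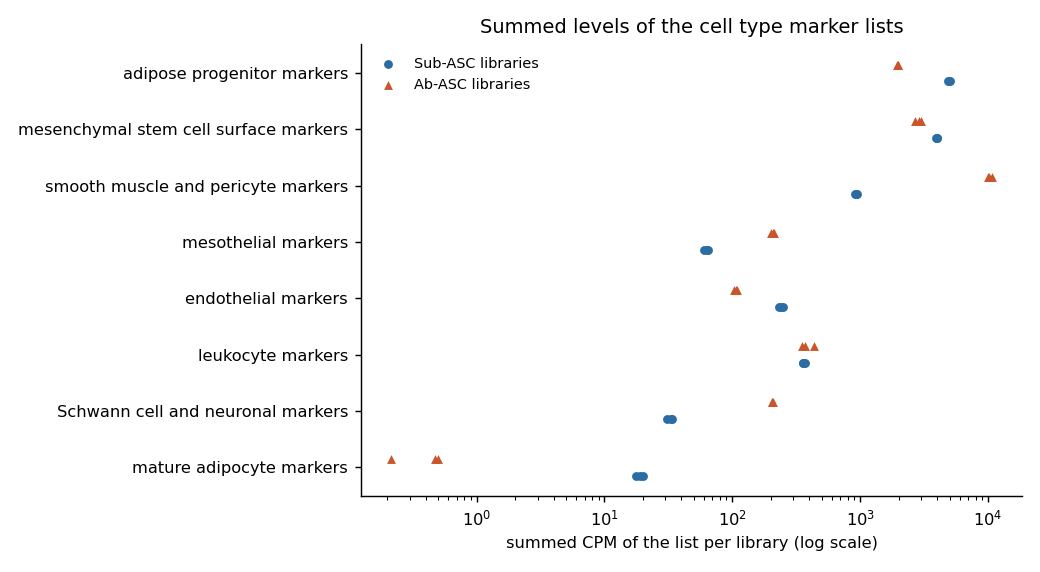
Summed CPM of each marker list (log scale) in the 3 Sub-ASC libraries (circles) and the 3 Ab-ASC libraries (triangles). Smooth muscle and mesothelial markers were higher in every Ab-ASC library, mature adipocyte markers were lower in every one, and the leukocyte markers overlapped between the groups.

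Genes of the interferon response were lower in Ab-ASCs. Interferons bind receptors that signal through JAK kinases to STAT and IRF factors, which switch on antiviral effectors, GTPases that attack intracellular microbes, chemokines and antigen presentation. Of 16 receptors, kinases and factors tested, 14 were lower in Ab-ASCs, 10 of them by the 2-fold test, and 1 was higher (median -1.88). Irf7, which amplifies the type I response, was at 208, 199.7 and 216 CPM in the Sub-ASC libraries and 8.8, 5.62 and 6.93 CPM in the Ab-ASC libraries, 29.4-fold lower in Ab-ASCs (log2 fold change -4.88, SE 0.139). Irf9, the DNA-binding part of a complex with STAT2, was at 63.9, 65.7 and 68.4 CPM in the Sub-ASC libraries and 13.1, 11.4 and 10.8 CPM in the Ab-ASC libraries. The groups did not overlap for either gene. Irf7 overlaps Phrf1 on the opposite strand and Irf9 overlaps Rnf31 on its own strand, so some of their reads are uncertain. The receptor chains moved less, with Ifnar1 at -0.32, Ifnar2 at -1.14 and Ifngr1 at -0.94, while Ifngr2 was higher at 0.86. Irf3, which acts downstream of viral RNA sensors, was at 0.20 (SE 0.0871) and did not pass the test, although without Ab-ASC replicate 1 a second member of the list was higher. Ifng itself, the type II interferon that lymphocytes make, had 64, 49 and 56 reads in the Sub-ASC libraries and 0 in each Ab-ASC library, at least 16.1-fold lower when 3 reads are taken in each library. Ifnb1 and Ifna4 had 0 reads in all 6 libraries, so up to 3 reads, or 0.15 CPM, could have gone unseen in each.

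All 21 antiviral effectors tested were lower in Ab-ASCs, 20 by the 2-fold test, with a median of -4.49. Ifit1, which binds foreign RNA caps, was at 111, 131 and 113 CPM in the Sub-ASC libraries and 1.2, 1.29 and 1.2 CPM in the Ab-ASC libraries, and Isg15, a ubiquitin-like modifier, at 82.1, 60.4 and 79.3 CPM in the Sub-ASC libraries and 3.4, 3.91 and 3.12 CPM in the Ab-ASC libraries. Oas2, which senses double-stranded RNA, was at 69.8, 71.1 and 65.2 CPM in the Sub-ASC libraries and 0.3, 0.3 and 0.257 CPM in the Ab-ASC libraries and Rsad2 (viperin) at 14.9, 14.4 and 14 CPM in the Sub-ASC libraries and 0.2, 0.0429 and 0.513 CPM in the Ab-ASC libraries. Every Sub-ASC library was above every Ab-ASC library for each of these genes. The exception to the 2-fold test was Oasl1, at 13.4 ± 1.16 CPM in Sub-ASCs and 9.76 ± 1.52 CPM in Ab-ASCs (log2 fold change -0.46, SE 0.13).

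The interferon-induced GTPases and chemokines had the lowest median of the 41 lists, at -8.18, and all 14 tested were lower in Ab-ASCs by the 2-fold test. Gbp2, a guanylate-binding protein, was at 1058, 1148 and 1125 CPM in the Sub-ASC libraries and 77.3, 70.7 and 70 CPM in the Ab-ASC libraries, and Irgm1, an immunity-related GTPase, at 473, 511 and 477 CPM in the Sub-ASC libraries and 26.5, 26.6 and 25.1 CPM in the Ab-ASC libraries. Iigp1 was at 1527 ± 120.4 CPM in Sub-ASCs and 1.82 ± 1.2 CPM in Ab-ASCs and Igtp at 693 ± 10.8 CPM in Sub-ASCs and 2.82 ± 0.31 CPM in Ab-ASCs. Cxcl10, a chemokine for T cells, was at 99.2, 106 and 96.1 CPM in the Sub-ASC libraries and 0.5, 0.386 and 1.03 CPM in the Ab-ASC libraries. Its neighbour Cxcl9, on chr5:92321347-92348889 with it, was at 419, 477 and 428 CPM in Sub-ASCs but had 1 read in all over the Ab-ASC libraries, a ratio of 29455 (95% interval from counting error alone, 5286 to 1163458). Gbp4 likewise had 1 read over the Ab-ASC libraries against 449.9, 485 and 417 CPM in Sub-ASCs, and Gbp10 and Gbp8 had 0, being at least 723-fold and at least 368-fold lower. The Gbp genes form a cluster on chr3:142493978-142638008 (Gbp2, Gbp3, Gbp5 and Gbp7) and another on chr5:105014150-105293698 (Gbp4, Gbp6, Gbp8 and Gbp10), and members of both were lower. Gbp6 and Gbp10 are close copies, and Gbp4, Gbp8 and Gbp9 overlap on the same strand, so the split of reads among these genes of chromosome 5 is uncertain. The same holds for Tgtp1, an immunity-related GTPase with a near-identical copy, at 149, 167 and 160.1 CPM in Sub-ASCs and 2, 2 and 0 reads in the Ab-ASC libraries.

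The promoters of these genes were searched for GAAANNGAA, the core of the interferon-stimulated response element, on both strands of the window from 250 bases before to 50 bases after each RefSeq start site (GRCm38.p6). It was present for 12 of 15 antiviral effectors with a promoter in the table (75% of their promoters), for 9 of 10 GTPases and chemokines (81.8%) and for 3 of 17 receptors, kinases and factors (15%), beside 8.56% of all 32851 promoters. The sequences below, 5′ to 3′ on the strand of the gene, are those of the members with a match and the highest levels in Sub-ASCs, shown because these genes moved together, and capitals mark the match. They are Stat2 at chr10:128270248-128270547 on the plus strand, Bst2 at chr8:71537423-71537722 on the minus strand, Ddx58 at chr4:40239776-40240075 on the minus strand, Gbp2 at chr3:142620413-142620712 on the plus strand and Igtp at chr11:58199306-58199605 on the plus strand.
Stat2: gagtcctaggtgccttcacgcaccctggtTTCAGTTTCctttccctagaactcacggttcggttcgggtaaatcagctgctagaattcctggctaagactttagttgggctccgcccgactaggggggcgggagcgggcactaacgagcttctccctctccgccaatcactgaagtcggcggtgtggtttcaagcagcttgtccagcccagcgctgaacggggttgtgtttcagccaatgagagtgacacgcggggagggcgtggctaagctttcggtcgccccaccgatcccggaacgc
Bst2: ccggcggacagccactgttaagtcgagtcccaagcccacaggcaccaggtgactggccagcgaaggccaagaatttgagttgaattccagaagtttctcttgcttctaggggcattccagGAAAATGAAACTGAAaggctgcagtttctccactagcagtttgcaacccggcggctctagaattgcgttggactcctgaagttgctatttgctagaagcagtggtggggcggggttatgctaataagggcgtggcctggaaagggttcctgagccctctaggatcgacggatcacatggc
Ddx58: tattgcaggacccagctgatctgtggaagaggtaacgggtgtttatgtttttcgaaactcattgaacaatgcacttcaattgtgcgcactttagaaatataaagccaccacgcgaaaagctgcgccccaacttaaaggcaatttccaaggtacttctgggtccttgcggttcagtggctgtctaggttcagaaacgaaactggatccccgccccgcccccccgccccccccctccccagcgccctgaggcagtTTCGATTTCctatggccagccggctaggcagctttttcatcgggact
Gbp2: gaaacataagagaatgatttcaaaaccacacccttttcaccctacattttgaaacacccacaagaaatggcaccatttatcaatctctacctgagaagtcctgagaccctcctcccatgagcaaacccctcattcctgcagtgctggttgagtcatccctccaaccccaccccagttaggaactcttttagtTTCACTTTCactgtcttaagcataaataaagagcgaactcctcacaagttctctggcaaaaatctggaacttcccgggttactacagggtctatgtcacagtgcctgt
Igtp: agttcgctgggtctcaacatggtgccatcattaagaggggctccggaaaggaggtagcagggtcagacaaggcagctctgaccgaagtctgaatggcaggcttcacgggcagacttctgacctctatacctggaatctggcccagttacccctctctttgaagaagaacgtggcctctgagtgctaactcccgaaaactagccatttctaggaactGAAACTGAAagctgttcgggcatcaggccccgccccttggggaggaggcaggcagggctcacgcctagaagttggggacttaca

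In Bst2, which encodes tetherin, 2 overlapping matches form a single longer run, and in Ddx58, the RNA sensor RIG-I, the match lies just after the start site. These genes were at 392 ± 33.6 CPM in Sub-ASCs and 30.4 ± 4 CPM in Ab-ASCs and 123 ± 8.82 CPM in Sub-ASCs and 35.2 ± 0.365 CPM in Ab-ASCs, and Stat2, the partner of Irf9, at 278 ± 7.37 CPM in Sub-ASCs and 12.3 ± 0.0892 CPM in Ab-ASCs. A match describes the letters of the window and shows neither a bound site nor a cause.

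Antigen presentation genes were lower without exception: all 15 passed the 2-fold test, with a median of -4.12. B2m, the light chain of MHC class I, was at 5007, 5425 and 4960 CPM in the Sub-ASC libraries and 312, 403 and 378 CPM in the Ab-ASC libraries. It was 14.1-fold lower in Ab-ASCs (log2 fold change -3.81, SE 0.101) and had the largest difference in FPKM (reads scaled for gene length and library size) among genes lower by the 2-fold test. H2-K1, a class I heavy chain, was at 1016, 1049 and 1027 CPM in the Sub-ASC libraries and 94.1, 79.8 and 84 CPM in the Ab-ASC libraries, and Tap1, the peptide transporter, at 271, 264 and 296 CPM in the Sub-ASC libraries and 10.7, 10.9 and 10.6 CPM in the Ab-ASC libraries. For these genes the groups were apart in every library. Ciita, the master factor of MHC class II, was at 10.3, 9.41 and 9.17 CPM in Sub-ASCs against 1, 3 and 3 reads in Ab-ASCs, and Cd74, the invariant chain, was at 28.6 ± 0.415 CPM in Sub-ASCs and 0.298 ± 0.223 CPM in Ab-ASCs. Tap1 and Psmb9 overlap on opposite strands, as do Ciita and Dexi, and H2 genes are close copies, so their reads may be split uncertainly.

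Complement and acute-phase proteins followed, with all 15 tested lower in Ab-ASCs and 14 past the 2-fold test (median -4.61, or -4.49 with genes at the floor set to their bound). Summed, these genes took 23901 to 26415 CPM in Sub-ASCs and 1148 to 1179 CPM in Ab-ASCs. C3, the central complement component, was at 3273, 3435 and 3360.1 CPM in the Sub-ASC libraries and 201, 196 and 206 CPM in the Ab-ASC libraries, and C4b at 3376 ± 29.3 CPM in Sub-ASCs and 7.19 ± 0.654 CPM in Ab-ASCs. Saa3, a serum amyloid made by inflamed fat, was at 10604, 7822 and 10574 CPM in the Sub-ASC libraries and 48.5, 47 and 43.4 CPM in the Ab-ASC libraries, 209-fold lower in Ab-ASCs, and Lcn2 (lipocalin) at 77.5, 88.8 and 80.5 CPM in the Sub-ASC libraries and 7.5, 6.61 and 5.43 CPM in the Ab-ASC libraries. Saa3 was lower in Sub-ASC replicate 2 than in its other libraries, which was still far above Ab-ASCs. Its neighbour Saa1 had 0 reads in Ab-ASCs and 18.6, 13.7 and 16.2 CPM in Sub-ASCs. Serping1, the C1 inhibitor, was at 4029.7 ± 163 CPM in Sub-ASCs and 165 ± 14.4 CPM in Ab-ASCs. Ptx3 passed only the plain test, at 1047 ± 15.7 CPM in Sub-ASCs and 538 ± 3.84 CPM in Ab-ASCs.

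The cytokines and other chemokines divided, with 10 of 21 higher and 10 lower in Ab-ASCs (median -0.07, from -0.39 to 0.23 without single libraries). Higher in Ab-ASCs were cytokines of the IL-6 family: Lif at 408, 399.8 and 408 CPM in the Ab-ASC libraries and 27, 25.1 and 24.6 CPM in the Sub-ASC libraries, Il11 at 2.29 ± 0.288 CPM in Sub-ASCs and 109 ± 1.43 CPM in Ab-ASCs and Il6 at 35.8 ± 2.78 CPM in Sub-ASCs and 95.2 ± 11.5 CPM in Ab-ASCs. Csf1, the macrophage growth factor, was 6.04-fold higher at 987 ± 22.9 CPM in Sub-ASCs and 5958 ± 50.4 CPM in Ab-ASCs. Ccl2, a monocyte chemokine, was at 322, 316 and 318 CPM in the Sub-ASC libraries and 564, 681 and 666 CPM in the Ab-ASC libraries, 2-fold higher in Ab-ASCs. Lower were Cxcl12, which retains stem cells in their niche, at 5749, 5531 and 5874 CPM in the Sub-ASC libraries and 260, 261 and 254 CPM in the Ab-ASC libraries, Il33, the alarmin of stromal cells, at 636 ± 31.8 CPM in Sub-ASCs and 6.13 ± 1.39 CPM in Ab-ASCs, and Ccl8 at 483 ± 8.74 CPM in Sub-ASCs and 1.71 ± 0.607 CPM in Ab-ASCs. Tnfsf10 and Cxcl13 had 0 reads in Ab-ASCs and 5.6, 6.22 and 7.26 and 3.74, 5.5 and 5.02 CPM in Sub-ASCs. LIF was also in the medium, which the study describes alike for ASCs of all depots, and its part in these levels was not tested.

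Genes of the cell cycle were higher in Ab-ASCs. DNA replication genes copy the genome in S phase, and mitotic genes build the spindle and part the chromosomes. Of 29 replication genes, 28 were higher, 25 by the 2-fold test, and none was lower (median 2.27). All 24 mitotic genes were higher by the 2-fold test (median 3.61). Mcm5, part of the replicative helicase, was at 96.3, 87.8 and 91.7 CPM in the Ab-ASC libraries and 9.26, 8.95 and 9.06 CPM in the Sub-ASC libraries, 10.1-fold higher in Ab-ASCs. Rrm2, which makes deoxynucleotides, was at 204, 189.9 and 192 CPM in the Ab-ASC libraries and 7.49, 9.03 and 7.41 CPM in the Sub-ASC libraries, and Pcna, the sliding clamp, at 156, 143 and 141 CPM in the Ab-ASC libraries and 61, 54.5 and 57 CPM in the Sub-ASC libraries. The increases were thus of unequal size, with Pcna (1.35) and E2f1 (0.66) well below Rrm2 (4.61). Pola1, a subunit of the primase polymerase, was at 8.4 ± 0.546 CPM in Sub-ASCs and 11.1 ± 4 CPM in Ab-ASCs and did not pass the test.

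In mitosis, Cdk1, the kinase that drives entry, was at 133, 117 and 119.9 CPM in the Ab-ASC libraries and 9.17, 8.76 and 8.4 CPM in the Sub-ASC libraries (log2 fold change 3.81, SE 0.0803), and its cyclin Ccnb1 at 109, 117 and 115 CPM in the Ab-ASC libraries and 4.03, 5.61 and 4.25 CPM in the Sub-ASC libraries. Mki67, the proliferation antigen, was at 50, 89.4 and 88 CPM in the Ab-ASC libraries and 9.09, 12.2 and 9.68 CPM in the Sub-ASC libraries, and Top2a, which untangles chromosomes, at 96.3, 184 and 153 CPM in the Ab-ASC libraries and 20.9, 22 and 20.4 CPM in the Sub-ASC libraries. For Mki67 and Top2a, Ab-ASC replicate 1 was well below the other Ab-ASC libraries, but above every Sub-ASC library. Ube2c and Cdc20, which act in the anaphase-promoting complex, were 26.6-fold and 19.3-fold higher. Cdc20 overlaps Elovl1 on the opposite strand.

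The E2F sites TTTGGCGC or TTTCCCGC were found on either strand in the promoters of 8 of 23 replication genes with a promoter in the table (29.6% of their promoters, beside 1.56% of all). TTTGAA, the cell cycle homology region, was found for 14 of 20 mitotic genes (70%, beside 17.9%). The promoters with a match of the members highest in Ab-ASCs are shown in the same manner, as these lists were higher together: Mcm6 at chr1:128359656-128359955 on the minus strand, Mcm5 at chr8:75109259-75109558 on the plus strand, Top2a at chr11:99024140-99024439 on the minus strand and Cdk1 at chr10:69352863-69353162 on the minus strand.
Mcm6: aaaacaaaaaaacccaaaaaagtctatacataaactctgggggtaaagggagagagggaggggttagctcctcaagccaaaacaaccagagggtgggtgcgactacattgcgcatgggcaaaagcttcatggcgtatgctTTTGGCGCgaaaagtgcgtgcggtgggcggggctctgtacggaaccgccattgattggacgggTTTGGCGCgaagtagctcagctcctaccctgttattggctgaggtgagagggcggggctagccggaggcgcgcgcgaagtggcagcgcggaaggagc
Mcm5: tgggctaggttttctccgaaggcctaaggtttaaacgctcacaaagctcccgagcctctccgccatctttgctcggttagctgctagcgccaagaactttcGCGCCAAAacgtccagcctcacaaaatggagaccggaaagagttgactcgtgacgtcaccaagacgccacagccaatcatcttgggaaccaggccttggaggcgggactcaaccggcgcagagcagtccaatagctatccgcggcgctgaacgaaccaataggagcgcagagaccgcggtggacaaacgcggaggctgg
Top2a: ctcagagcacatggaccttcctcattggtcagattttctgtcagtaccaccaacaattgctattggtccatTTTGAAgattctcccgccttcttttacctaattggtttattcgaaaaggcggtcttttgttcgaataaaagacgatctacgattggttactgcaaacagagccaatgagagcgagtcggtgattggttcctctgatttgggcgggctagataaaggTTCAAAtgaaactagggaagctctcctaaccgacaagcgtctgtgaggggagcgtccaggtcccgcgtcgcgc
Cdk1: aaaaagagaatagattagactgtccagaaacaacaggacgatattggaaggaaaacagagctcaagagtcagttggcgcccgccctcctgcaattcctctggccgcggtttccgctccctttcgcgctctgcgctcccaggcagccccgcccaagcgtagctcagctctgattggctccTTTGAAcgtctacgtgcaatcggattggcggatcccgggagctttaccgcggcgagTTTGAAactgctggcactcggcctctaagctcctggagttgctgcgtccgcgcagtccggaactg

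Inhibitors of the cycle and p53 targets divided, with 7 of 16 higher and 6 lower in Ab-ASCs (median 0.06, from 0.01 to 0.10 without single libraries). Cdkn1a (p21) was at 314, 288 and 302 CPM in the Ab-ASC libraries and 129, 123 and 130.3 CPM in the Sub-ASC libraries, 2.36-fold higher in the group with the higher mitotic genes. Mdm2, a p53 target that degrades p53, was at 0.86. Trp53inp1 (-2.92) and Gadd45a (-2.16), of the same list, were lower by the 2-fold test. Cdkn1c (p57), an imprinted inhibitor, was at 33.7, 36 and 38.2 CPM in the Sub-ASC libraries and 0.95, 0.73 and 0.599 CPM in the Ab-ASC libraries, 47.5-fold lower in Ab-ASCs, and Cdkn1b (p27) was at -1.19. Cdkn2a, which rises in senescent cultures, was at 6.35 ± 0.196 CPM in Sub-ASCs and 5.95 ± 1.31 CPM in Ab-ASCs and did not pass the test.

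**Figure D3:**
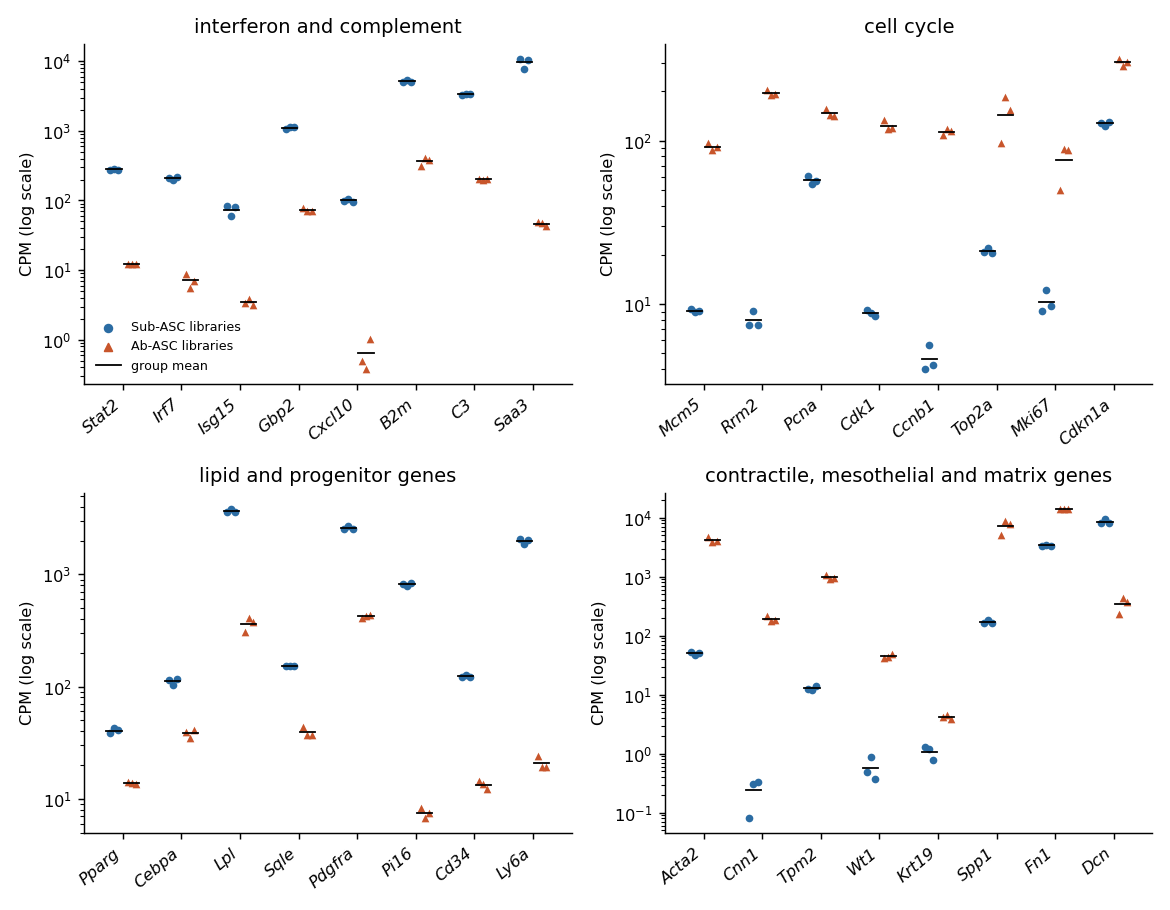
CPM (log scale) of 32 genes in each Sub-ASC library (circles) and Ab-ASC library (triangles), with a bar at each group's mean, in 4 panels by theme. In every gene shown the libraries of the groups stand apart. Ab-ASC replicate 1, the left triangle, is lower than the other Ab-ASC libraries in several, among them Top2a, Mki67, Spp1, Dcn, Lpl and B2m.

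Adipogenic factors were mostly lower in Ab-ASCs, with 15 of 18 tested lower and 1, Klf4 (0.34), higher (median -1.35). Pparg, the master regulator of adipocytes, was at 38.3, 42.6 and 40.6 CPM in the Sub-ASC libraries and 14.1, 13.9 and 13.4 CPM in the Ab-ASC libraries, and Cebpa, its partner, at 115, 103 and 117 CPM in the Sub-ASC libraries and 39.5, 35.1 and 41 CPM in the Ab-ASC libraries. Fabp4, which binds fatty acids, was at 131, 119 and 122 CPM in the Sub-ASC libraries and 35.5, 35.4 and 33.5 CPM in the Ab-ASC libraries. Lpl, the lipase that frees fatty acids for uptake, was at 3582, 3858 and 3571 CPM in the Sub-ASC libraries and 304, 411 and 374 CPM in the Ab-ASC libraries, 10.1-fold lower in Ab-ASCs (log2 fold change -3.34, SE 0.109). The groups did not overlap for any of these genes. Plin1, which coats lipid droplets of mature adipocytes, was at 16.9, 18.5 and 19.2 CPM in Sub-ASCs against 1, 3 and 1 reads in Ab-ASCs. Adipoq (adiponectin) had 17, 11 and 22 reads in Sub-ASC libraries and 1, 1 and 0 in Ab-ASC libraries, and Lep had 0 in all. Ebf2 and Dgat2 did not pass the test, at -0.20 (SE 0.0866) and -0.23 (SE 0.0968).

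Of the 8 brown and beige genes listed, 5 could be tested, 4 being lower and 1 higher in Ab-ASCs. Prdm16, which directs brown fate, was at 7.55 ± 1.47 CPM in Sub-ASCs and 2.89 ± 0.129 CPM in Ab-ASCs, and Ppargc1a, the coactivator of mitochondrial genes, at 2.11 ± 0.337 CPM in Sub-ASCs and 0.281 ± 0.0735 CPM in Ab-ASCs. Tbx1 was at 5.8 ± 1.3 CPM in Sub-ASCs and 0.29 ± 0.165 CPM in Ab-ASCs and Tmem26 at 5.11 ± 0.316 CPM in Sub-ASCs and 1.2 ± 0.195 CPM in Ab-ASCs, whereas Dio2, which activates thyroid hormone, was at 3.85 ± 0.694 CPM in Sub-ASCs and 7.29 ± 0.906 CPM in Ab-ASCs, higher in Ab-ASCs. Ucp1, the uncoupling protein itself, had 0 reads in every library.

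All 22 genes of cholesterol and fatty acid synthesis were lower in Ab-ASCs, 15 by the 2-fold test, with a median of -1.84. Sqle, which commits squalene to sterols, was at 154, 153 and 154 CPM in the Sub-ASC libraries and 43.5, 37 and 37.3 CPM in the Ab-ASC libraries. Hmgcs1 was at 280.2 ± 9.05 CPM in Sub-ASCs and 46.2 ± 5.27 CPM in Ab-ASCs and Idi1, a later step of the mevalonate branch, at 77.2 ± 5.73 CPM in Sub-ASCs and 6.88 ± 2.45 CPM in Ab-ASCs. In the fatty acid branch Scd1, a desaturase, was at 506, 529.8 and 516 CPM in the Sub-ASC libraries and 259.6, 251 and 257 CPM in the Ab-ASC libraries and Fasn, the synthase, at 384, 392 and 391 CPM in the Sub-ASC libraries and 301, 292 and 298 CPM in the Ab-ASC libraries. Sqle, Hmgcs1 and Idi1 were thus lower by larger factors than Fasn, and Srebf2, the factor that controls them, was at -0.99. Fdps, at 14.9 ± 1.38 CPM in Sub-ASCs and 1.08 ± 0.0318 CPM in Ab-ASCs, has close pseudogene copies that may take its reads.

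Mesothelial markers were higher in Ab-ASCs, though at low levels. Of 17 tested, 15 were higher, 11 by the 2-fold test, and none was lower (median 4.10). Wt1, the factor of mesothelium and visceral fat progenitors, was at 42.3, 44 and 49.6 CPM in the Ab-ASC libraries and 0.494, 0.872 and 0.367 CPM in the Sub-ASC libraries (log2 fold change 6.28, SE 0.194). Msln (mesothelin) was at 7.1, 6.52 and 5.01 CPM in Ab-ASCs and had 0, 1 and 0 reads in Sub-ASC libraries, and Upk3b, a uroplakin, was at 10.7, 8.2 and 9.84 CPM against 0, 3 and 2 reads. Upk1b and Lrrn4 had 0 reads in Sub-ASCs and were at least 129-fold and at least 93.8-fold higher. The keratins Krt8, Krt18 and Krt19 were at 0.368 ± 0.314 CPM in Sub-ASCs and 17.8 ± 1.28 CPM in Ab-ASCs, 0.65 ± 0.55 CPM in Sub-ASCs and 12.7 ± 1.13 CPM in Ab-ASCs and 1.07 ± 0.268 CPM in Sub-ASCs and 4.18 ± 0.393 CPM in Ab-ASCs. Muc16 had 0, 4 and 2 reads in Ab-ASCs and 0 in Sub-ASCs, and was not tested. Gpm6a and Cldn15 did not pass the test.

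Factors of epithelial and mesenchymal state divided, with 7 of 15 higher and 8 lower in Ab-ASCs, or 5 lower without Ab-ASC replicate 3, and the sign of their median turned with the libraries used. The epithelial cadherins Cdh1 and Cdh3 were at 1.55 ± 0.302 CPM and 4.12 ± 0.403 CPM in Ab-ASCs and 0.125 ± 0.0747 CPM and 0.0379 ± 0.0657 CPM in Sub-ASCs. Vim, the mesenchymal intermediate filament, was also higher, at 2526, 2365 and 2362 CPM in the Ab-ASC libraries and 1038, 1073 and 1057 CPM in the Sub-ASC libraries. Lower in Ab-ASCs were Snai2 (-1.50), Zeb1 (-0.82) and Twist1 (-0.46), which repress epithelial genes, and Cdh13 (-3.13), while Snai1 was higher (0.57).

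Contractile genes were higher in Ab-ASCs. Of 16 smooth muscle and pericyte markers tested, 13 were higher, all by the 2-fold test, and 2 lower (median 3.59). Acta2, smooth muscle actin, was at 4693, 3878 and 4078 CPM in the Ab-ASC libraries and 52.7, 47.7 and 51.8 CPM in the Sub-ASC libraries, 83.1-fold higher in Ab-ASCs (log2 fold change 6.38, SE 0.0966). Cnn1 (calponin) was at 212, 174 and 182 CPM in the Ab-ASC libraries and 0.0823, 0.303 and 0.33 CPM in the Sub-ASC libraries, and Myh11, the smooth muscle myosin, at 81.8, 86.8 and 82.7 CPM in the Ab-ASC libraries and 7.45, 7.89 and 7.3 CPM in the Sub-ASC libraries. Tagln (SM22) was at 56.7, 68.8 and 71.4 CPM in the Ab-ASC libraries and 0.453, 0.607 and 1.25 CPM in the Sub-ASC libraries, and it overlaps Pcsk7 on the opposite strand. Tpm2, a tropomyosin, was at 12.9 ± 1.05 CPM in Sub-ASCs and 989 ± 85.9 CPM in Ab-ASCs, and Actg2, the enteric actin, at 0.481 ± 0.332 CPM in Sub-ASCs and 221 ± 18.9 CPM in Ab-ASCs. No Ab-ASC library overlapped a Sub-ASC library in these genes. The genes that were lower, Rgs5 at 6.03 ± 0.393 CPM in Sub-ASCs and 0.719 ± 0.283 CPM in Ab-ASCs and Kcnj8 at 4.24 ± 0.314 CPM in Sub-ASCs and 0.298 ± 0.076 CPM in Ab-ASCs, mark pericytes, although the pericyte proteoglycan Cspg4 (NG2) was higher at 1.42 ± 0.235 CPM in Sub-ASCs and 30.3 ± 0.313 CPM in Ab-ASCs. Synpo2 did not pass the test, and Myocd, which directs the smooth muscle programme, had 8, 13 and 6 reads in Ab-ASC and 3, 3 and 4 in Sub-ASC libraries and was not tested. Actb, the cytoplasmic actin, was 6.75-fold higher as well.

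Collagens divided, with 9 of 19 higher and 8 lower in Ab-ASCs (median 0.03, from 0.01 to 0.11 without single libraries), where 36.1% and 38.8% of all genes tested were called. Col3a1, the fibre partner of type I collagen, was at 8744, 8431 and 9096 CPM in the Sub-ASC libraries and 1150.3, 1139 and 1159.8 CPM in the Ab-ASC libraries, 7.62-fold lower in Ab-ASCs. The chains of type VI collagen, which surrounds adipocytes, were lower together, with Col6a1 (-2.79), Col6a2 (-2.29) and Col6a3 (-2.65). The basement membrane chains Col4a1 and Col4a2 were higher, at 1.00 and 1.33. They overlap on opposite strands. Col1a1 was at 4831, 4783 and 4869 CPM in the Ab-ASC libraries and 3239, 3202 and 3374 CPM in the Sub-ASC libraries and higher, whereas its partner chain Col1a2 was lower, at 4133, 4083 and 4143 CPM in the Ab-ASC libraries and 4849, 4570.4 and 5003 CPM in the Sub-ASC libraries. Col15a1 (2.68), Col12a1 (2.06) and Col11a1 (5.32) were higher by the 2-fold test.

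Every one of the 28 proteoglycans and matrix glycoproteins was called, 14 higher and 14 lower in Ab-ASCs. Fn1 (fibronectin) was at 14264, 13815 and 14150 CPM in the Ab-ASC libraries and 3332, 3490.3 and 3373 CPM in the Sub-ASC libraries. Spp1 (osteopontin) was at 5027, 8863 and 7810.1 CPM in the Ab-ASC libraries and 165, 185 and 163 CPM in the Sub-ASC libraries, 42.2-fold higher in Ab-ASCs and lowest there in replicate 1, and Thbs1, an activator of latent TGF-beta, was 19.8-fold higher at 528 ± 19.4 CPM in Sub-ASCs and 10439.9 ± 319 CPM in Ab-ASCs. Conversely, Dcn (decorin), a small leucine-rich proteoglycan, was at 8092, 9338 and 8129 CPM in the Sub-ASC libraries and 234, 429 and 376 CPM in the Ab-ASC libraries, 24.6-fold lower in Ab-ASCs (log2 fold change -4.62, SE 0.218). Lum (lumican) was at 328, 348 and 321 CPM in the Sub-ASC libraries and 28.9, 41.9 and 36.1 CPM in the Ab-ASC libraries, and its relatives Ogn (-4.78), Prelp (-3.41) and Podn (-6.34) were lower too, though Fmod (1.93) and Bgn (1.05) were higher. Eln (elastin) was at 43.7, 37.8 and 43.8 CPM in the Sub-ASC libraries and 0.85, 0.215 and 0.556 CPM in the Ab-ASC libraries, and Tnxb, or tenascin X, at 701 ± 13.2 CPM in Sub-ASCs and 29 ± 1.01 CPM in Ab-ASCs, while the microfibril genes Fbn1 (1.27) and Mfap5 (1.83) were higher. Podn overlaps Scp2 on the same strand.

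Matrix proteases and their inhibitors divided, with 12 of 21 lower and 8 higher in Ab-ASCs. Mmp2, a gelatinase, was at 2980.3, 3064 and 3066 CPM in the Sub-ASC libraries and 369.8, 349 and 364 CPM in the Ab-ASC libraries, and Mmp3 (stromelysin) at 4777, 5046 and 4795 CPM in the Sub-ASC libraries and 539, 507 and 508 CPM in the Ab-ASC libraries. Timp1, the protease inhibitor, was at 6899, 5273 and 5630.1 CPM in the Ab-ASC libraries and 391, 363 and 396 CPM in the Sub-ASC libraries, 15.5-fold higher in Ab-ASCs, and had the largest gain in mean FPKM among genes past the 2-fold test, from 432 ± 20.2 to 6683 ± 962. The inhibitors were not alike, as Timp2 was at -1.16 and Timp3 at 2.33, and neither were the proteases, as Mmp10 (4.92) and Mmp13 (2.09) were higher.

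Among laminins, basement membrane genes and integrins, 15 of 28 were higher and 9 lower in Ab-ASCs (median 0.45). Integrin chains made up 11 of the 15 higher genes, and 2 of 15 integrins were lower. Itga5, the fibronectin receptor, was at 163 ± 9.3 CPM in Sub-ASCs and 2012 ± 63.7 CPM in Ab-ASCs, Itgb3 at 1.86, Itgav at 1.06 and Itgb1 at 1.04. Itga8, of smooth muscle, was at 6.7, 7.9 and 8.22 CPM in the Ab-ASC libraries and 0.699, 0.986 and 0.623 CPM in the Sub-ASC libraries. Of 10 laminin chains, 5 were lower, among them Lama4 (-1.53), Lamb1 (-0.60) and Lamc1 (-0.69), and 3 were higher. The latter included Lama1 (4.54) and Lama3 (2.10), which had low levels of 3.4 ± 0.167 CPM and 2.55 ± 0.168 CPM in Ab-ASCs. Lama5 did not pass the test, at 11.2 ± 1.22 CPM in Sub-ASCs and 10.1 ± 1.24 CPM in Ab-ASCs.

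Hox genes keep the position of a cell along the body axis, with low numbers expressed from the front and high numbers toward the rear and the limbs. The depots parted along this order. Of 19 Hox genes numbered 1 to 8 and tested, 15 were higher in Ab-ASCs, 6 by the 2-fold test, and none was lower (median 0.80). Among 9 numbered 9 to 13, 7 were lower and 2 higher (median -2.93, or -1.91 with genes at the floor set to their bound). Hoxa5 was at 33.1, 33.3 and 30.1 CPM in the Ab-ASC libraries and 5.6, 6.41 and 6.2 CPM in the Sub-ASC libraries, 5.29-fold higher in Ab-ASCs, and Hoxc8 at 56.4, 60 and 57.2 CPM in the Ab-ASC libraries and 25.3, 23.8 and 21.7 CPM in the Sub-ASC libraries. Hoxa9 was at 14.9, 15.6 and 14.4 CPM in the Sub-ASC libraries and 2.05, 1.89 and 1.97 CPM in the Ab-ASC libraries, Hoxa10 at 17.8 ± 0.828 CPM in Sub-ASCs and 1.07 ± 0.171 CPM in Ab-ASCs, and Hoxc10 at 38.2, 33.5 and 35.2 CPM in the Sub-ASC libraries and 1.7, 1.54 and 1.5 CPM in the Ab-ASC libraries, 22.5-fold lower in Ab-ASCs. Within the Hoxa cluster the direction turned between Hoxa7 (0.67) and Hoxa9 (-2.93), and within Hoxc between Hoxc8 (1.29) and Hoxc9 (-0.62). The exceptions were Hoxb9, at 1.44 ± 0.158 CPM in Sub-ASCs and 4.23 ± 0.494 CPM in Ab-ASCs, and Hoxc13, at 0.203 ± 0.0726 CPM in Sub-ASCs and 4.97 ± 0.496 CPM in Ab-ASCs, both higher in Ab-ASCs. Hoxb13 had 10, 12 and 18 reads in Sub-ASC libraries and 0 in Ab-ASC libraries. Hoxb4, Hoxb7, Hoxc6 and Hoxd8 did not pass the test, with log2 fold changes of -0.01, 0.03, -0.09 and 0.07. The spans of Hoxa3 to Hoxa6 overlap, as do those of Hoxc5 and Hoxc8 to Hoxc10, so reads of shared exons cannot be assigned with certainty.

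**Figure D4:**
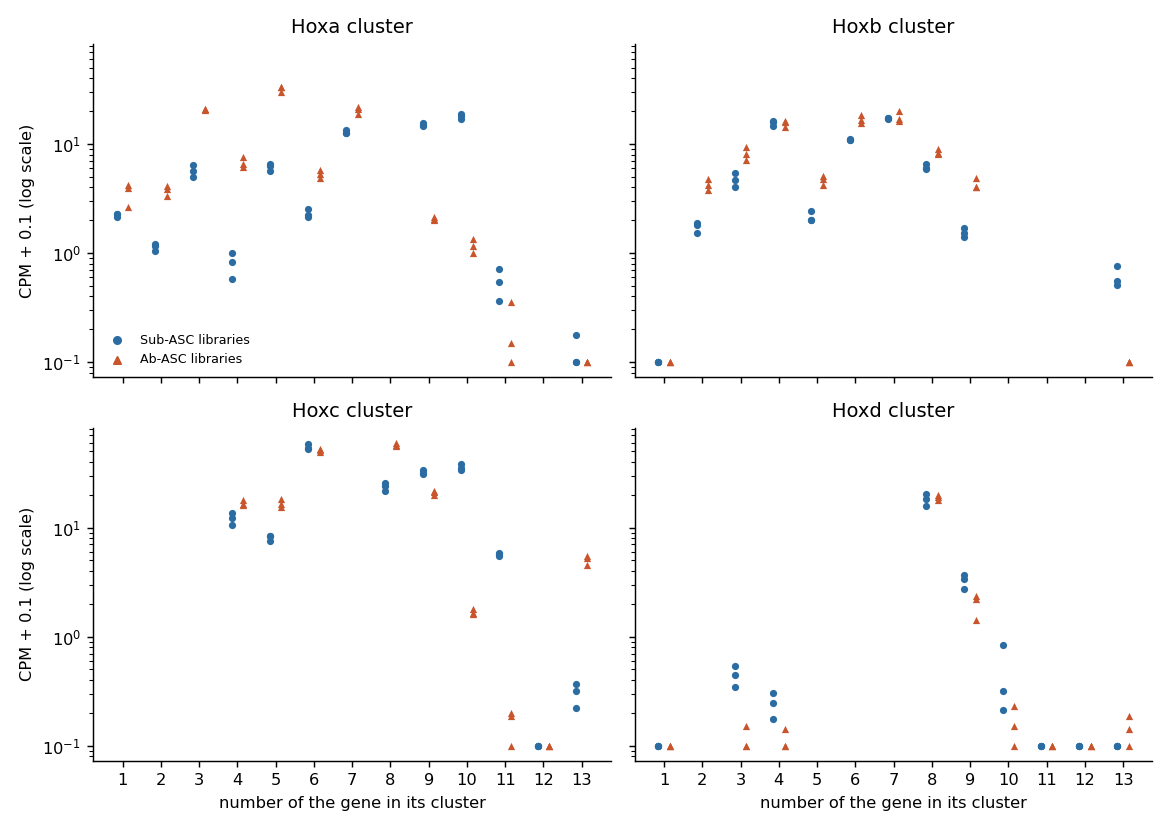
CPM plus 0.1 (log scale) of every listed Hox gene against its number, in 1 panel for each cluster, for the Sub-ASC libraries (circles) and Ab-ASC libraries (triangles). Triangles lie above circles for most genes up to number 8 in the Hoxa and Hoxb clusters, and below them for Hoxa9, Hoxa10, Hoxc9 to Hoxc11 and Hoxd9, while Hoxb9 and Hoxc13 go the other way.

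Other positional transcription factors also divided, with 17 of 31 tested higher and 12 lower in Ab-ASCs. Factors of limb, trunk and head mesenchyme were among those lower. Tbx15, a mark of subcutaneous preadipocytes, was at 122, 117 and 119.5 CPM in the Sub-ASC libraries and 0.75, 0.858 and 0.899 CPM in the Ab-ASC libraries, 142-fold lower, and Shox2, which patterns the limb, at 45.3, 46 and 45.3 CPM in the Sub-ASC libraries and 0.3, 0.215 and 0.0856 CPM in the Ab-ASC libraries. Tbx5, of forelimb and heart, had 0 reads in each Ab-ASC library and 13.1, 14.8 and 15 CPM in Sub-ASCs. En1, of ventral limb and dermis, was at 24.6, 24.1 and 23.1 CPM in the Sub-ASC libraries and 5.55, 5.84 and 5.22 CPM in the Ab-ASC libraries. Those higher included factors of visceral mesoderm. Tcf21, of visceral stroma, was at 13.5, 13.7 and 13.3 CPM in the Ab-ASC libraries and 0.165, 0.0379 and 0 CPM in the Sub-ASC libraries, and Gata6 at 46.6, 46.1 and 44.6 CPM in the Ab-ASC libraries and 29.7, 31.7 and 30.8 CPM in the Sub-ASC libraries. Gata4 was at 1.6, 1.46 and 1.63 CPM in Ab-ASCs and had 1, 0 and 0 reads in Sub-ASC libraries. Foxc2 was at 0.742 ± 0.18 CPM in Sub-ASCs and 35.5 ± 0.72 CPM in Ab-ASCs. Tbx18 and Foxf1 did not pass the test. Shox2 overlaps Rsrc1 on the opposite strand.

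In the TGF-beta and BMP pathway, 21 of 40 genes tested were higher and 16 lower in Ab-ASCs (median 0.31). Of the ligands, Inhba, the activin A chain, was 31.8-fold higher at 37.2 ± 1.8 CPM in Sub-ASCs and 1183 ± 367 CPM in Ab-ASCs, Gdf6 was at 0.795 ± 0.337 CPM in Sub-ASCs and 36.8 ± 3.41 CPM in Ab-ASCs, and Tgfb1 and Tgfb3 were at 1.39 and 1.72. Lower were Bmp4, at 5.97, 6.56 and 4.99 CPM in the Sub-ASC libraries and 1.25, 1.59 and 1.41 CPM in the Ab-ASC libraries, Tgfb2, at 25.1, 28.1 and 24.6 CPM in the Sub-ASC libraries and 9.7, 12.6 and 10.8 CPM in the Ab-ASC libraries, and Gdf10, at 114 ± 3.2 CPM in Sub-ASCs and 0.474 ± 0.184 CPM in Ab-ASCs. Of 7 receptors, 5 were lower, among them Tgfbr2 (-2.04), Tgfbr3 (-2.25) and Acvrl1 (-1.51), whereas Bmpr1b (2.60) was higher and Tgfbr1 did not pass the test. The inhibitory targets Smad6 and Smad7 were 3.31-fold and 3.48-fold higher, as was Id1, a BMP target, at 166, 146 and 145 CPM in the Ab-ASC libraries and 38.6, 31.3 and 35.6 CPM in the Sub-ASC libraries. Ltbp2, which binds microfibrils, was 38-fold higher. Grem1, a secreted BMP antagonist, was at 131, 190.2 and 162 CPM in the Ab-ASC libraries and 74.5, 77.7 and 72.8 CPM in the Sub-ASC libraries, and Chrd, another, was lower (-2.05).

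For the Wnt pathway, 17 of 36 genes tested were higher and 16 lower in Ab-ASCs. Wnt5a, a noncanonical ligand, was at 53.2, 55.9 and 48.6 CPM in the Ab-ASC libraries and 7.49, 5.65 and 5.24 CPM in the Sub-ASC libraries, Wnt2 at 0.528 ± 0.0497 CPM in Sub-ASCs and 22.6 ± 3.12 CPM in Ab-ASCs and Wnt11 at 3.15 ± 0.211 CPM in Sub-ASCs and 32.2 ± 0.969 CPM in Ab-ASCs. Wnt16 went the other way, at 169, 157 and 159.7 CPM in Sub-ASCs against 0, 0 and 3 reads in Ab-ASC libraries, a ratio of 3592 (95% interval from counting error alone, 1229 to 17419). All 5 secreted antagonists tested, Dkk2, Dkk3 and the Sfrp genes below, were lower. Sfrp2 was at 299, 308 and 303 CPM in the Sub-ASC libraries and 2.3, 1.76 and 2.14 CPM in the Ab-ASC libraries, Sfrp1 at 1219, 1201 and 1176 CPM in the Sub-ASC libraries and 226, 231 and 231 CPM in the Ab-ASC libraries and Sfrp4 at 37.1 ± 2.67 CPM in Sub-ASCs and 0.102 ± 0.0623 CPM in Ab-ASCs. Axin2, a target of canonical signalling, was at 21.1, 20.4 and 21.8 CPM in the Sub-ASC libraries and 4.4, 4.85 and 4.02 CPM in the Ab-ASC libraries, 4.77-fold lower in Ab-ASCs, while the nuclear partner of beta-catenin Lef1 was higher, at 0.114 ± 0.0603 CPM in Sub-ASCs and 3.96 ± 0.263 CPM in Ab-ASCs, and so was Nkd2 (2.05).

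Growth factor systems likewise parted by member. Of 28 genes of the FGF, PDGF and IGF systems tested, 14 were higher and 12 lower in Ab-ASCs. Feedback inhibitors of FGF signalling were higher, with Dusp6 (2.92), Spry4 (2.92), Spry1 (2.10) and Spry2 (0.23). The study describes the same medium, with FGF, for ASCs of all depots, and its part in these levels was not tested. Fgf10, which drives adipogenesis, did not pass the test, at 69.8 ± 1.5 CPM in Sub-ASCs and 64.2 ± 4.57 CPM in Ab-ASCs, and Fgf7 was lower at 199.7 ± 18.1 CPM in Sub-ASCs and 106 ± 20.6 CPM in Ab-ASCs. Igf1 was at 86.2, 97.3 and 84.9 CPM in the Sub-ASC libraries and 18.3, 18.9 and 20.3 CPM in the Ab-ASC libraries, and the binding proteins Igfbp5, at 359, 339.5 and 348 CPM in the Sub-ASC libraries and 34.5, 37.9 and 35.9 CPM in the Ab-ASC libraries, and Igfbp4, at 977 ± 37.7 CPM in Sub-ASCs and 96.9 ± 6.35 CPM in Ab-ASCs, were lower with it. Igfbp2 was at 0.779 ± 0.12 CPM in Sub-ASCs and 34.8 ± 1.39 CPM in Ab-ASCs and Igfbp7 at 379.7 ± 2.43 CPM in Sub-ASCs and 1002 ± 47.9 CPM in Ab-ASCs, both higher. Pdgfd was lower (-3.59), and Pdgfa and Pdgfc were higher (2.10 and 1.94).

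Of 23 Notch and Hedgehog genes tested, 6 were higher and 10 lower in Ab-ASCs. Notch3, the receptor of vascular smooth muscle, was at 24.4, 23.6 and 23.5 CPM in the Sub-ASC libraries and 9.35, 8.54 and 9.24 CPM in the Ab-ASC libraries, and Dll4, an endothelial ligand, at 4.63 ± 0.717 CPM in Sub-ASCs and 0.114 ± 0.163 CPM in Ab-ASCs. Jag1 and Ptch1 did not pass the test, at 22.4 ± 1.36 CPM in Sub-ASCs and 24.9 ± 2.18 CPM in Ab-ASCs and 16.6 ± 1.83 CPM in Sub-ASCs and 19.3 ± 0.606 CPM in Ab-ASCs, but did without Ab-ASC replicate 1 (adjusted p = 0.0153 and 0.0307 by edgeR's quasi-likelihood test). Gas1, a Hedgehog coreceptor, was 13.3-fold lower at 392 ± 5.39 CPM in Sub-ASCs and 29.5 ± 0.932 CPM in Ab-ASCs. The Hedgehog targets Hhip and Gli1 were higher but rested on few reads, with Hhip at 15, 27 and 36 reads in Ab-ASC and 1, 0 and 0 in Sub-ASC libraries, and Gli1 at 9, 14 and 17 and 0, 1 and 1. In addition, Gli1 overlaps Arhgap9 on the opposite strand.

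Retinoic acid genes gave 6 higher and 7 lower of 15 tested. The enzymes that make retinoic acid from retinal differed by isoform: Aldh1a2, that of the mesothelium and embryonic mesoderm, was at 619, 572 and 582 CPM in the Ab-ASC libraries and 20.1, 19.8 and 19.7 CPM in the Sub-ASC libraries, 29.7-fold higher in Ab-ASCs, and Aldh1a3 at 1.1 ± 0.205 CPM in Sub-ASCs and 35 ± 1.32 CPM in Ab-ASCs, whereas Aldh1a1 was lower, at 59.2 ± 1.07 CPM in Sub-ASCs and 23.9 ± 0.891 CPM in Ab-ASCs. Cyp26b1, which degrades retinoic acid, was lower at 18.6 ± 0.88 CPM in Sub-ASCs and 2.12 ± 0.164 CPM in Ab-ASCs. Rarb, a receptor gene induced by retinoic acid, was at 3.05, 3.43 and 4.32 CPM in the Ab-ASC libraries and 1.44, 1.21 and 1.17 CPM in the Sub-ASC libraries, and it overlaps Top2b on the opposite strand. The binding protein Crabp1 was lower, at 27.3, 24.6 and 26.5 CPM in the Sub-ASC libraries and 3.7, 1.93 and 2.48 CPM in the Ab-ASC libraries, while Crabp2 was higher (2.22).

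Axon guidance genes were divided too, with 15 of 30 tested higher and 14 lower in Ab-ASCs. Slit2 was at 295, 335 and 323 CPM in the Ab-ASC libraries and 48.3, 50.7 and 47.9 CPM in the Sub-ASC libraries, whereas its relative Slit3 was lower (-0.84). Unc5b, a netrin receptor, was 23.3-fold higher at 26.3 ± 1.92 CPM in Sub-ASCs and 614 ± 11.2 CPM in Ab-ASCs, and the ligand Ntn1 was lower at 242, 237 and 245 CPM in the Sub-ASC libraries and 85.1, 79.9 and 88.2 CPM in the Ab-ASC libraries. The ephrins Efnb1 and Efnb2 were higher (2.77 and 2.42), and Sema3b and Epha3 lower (-3.82 and -4.22). Among prostanoid and vasoactive genes 8 of 21 were higher and 12 lower. Ptgs2, the inducible cyclooxygenase, was at 462, 654 and 586 CPM in the Ab-ASC libraries and 19.7, 23.9 and 23.6 CPM in the Sub-ASC libraries, 25.3-fold higher, and Ptgs1 was at 3.09. The angiotensin genes Agt and Agtr1a were at 30.3 ± 1.91 CPM in Sub-ASCs and 1.63 ± 0.358 CPM in Ab-ASCs and 61.4 ± 2.01 CPM in Sub-ASCs and 1.4 ± 0.271 CPM in Ab-ASCs, lower in Ab-ASCs. Adm (adrenomedullin), which dilates vessels, was lower at 356 ± 3.41 CPM in Sub-ASCs and 39.5 ± 1.33 CPM in Ab-ASCs, as was the lymphatic growth factor Vegfd at 511 ± 12 CPM in Sub-ASCs and 17.9 ± 1.09 CPM in Ab-ASCs, whereas Vegfa did not pass the test at 517 ± 16.2 CPM in Sub-ASCs and 512 ± 31.4 CPM in Ab-ASCs.

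Of 27 oxidative phosphorylation genes, 17 were higher and 3 lower in Ab-ASCs, and 2, Atp5b (1.41) and Cycs (1.90), passed the 2-fold test (median 0.49). The higher genes were encoded in the nucleus, among them Ndufs1 at 73.9, 84 and 81.6 CPM in the Ab-ASC libraries and 58.7, 56.6 and 54.9 CPM in the Sub-ASC libraries and Cox4i1 at 329, 268 and 268 CPM in the Ab-ASC libraries and 225, 205 and 240.3 CPM in the Sub-ASC libraries. The lower genes were encoded in the mitochondrion: mt-Nd4 at -0.48, mt-Co1 at -0.49 and mt-Co2 at -0.41, the last from few reads. mt-Co1 was at 5637, 6751 and 5383 CPM in the Sub-ASC libraries and 3038, 4906 and 4694 CPM in the Ab-ASC libraries, where Ab-ASC replicate 1 was lowest, and its adjusted p by edgeR's quasi-likelihood test was 0.0269, or 0.105 without Sub-ASC replicate 2. Ndufs1 overlaps Eef1b2 on the opposite strand. Glycolytic and hypoxia genes gave 11 higher and 9 lower of 23, with 1 higher and 5 lower by the 2-fold test. Ldha and Pgk1 were at 0.54 and 0.60, whereas Aldoc, an aldolase, was 23.3-fold lower at 14.4 ± 0.521 CPM in Sub-ASCs and 0.609 ± 0.114 CPM in Ab-ASCs, and the hypoxia targets divided, Pdk1 (-1.67), Bnip3 (-1.52) and Ankrd37 (-2.41) being lower, Slc2a1 (0.56) and Egln3 (0.52) higher, and Vegfa (-0.02) not past the test. Gapdh was at 29.6 ± 24.2 CPM in Sub-ASCs and 219 ± 84 CPM in Ab-ASCs, low for this gene, which has many pseudogene copies, so its fold is uncertain.

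Antioxidant genes divided, with 8 of 17 higher and 8 lower in Ab-ASCs. Several targets of the factor NRF2 were higher, while the members of the list that are not named here lay on both sides. Nqo1, a quinone reductase, was at 263, 216 and 229 CPM in the Ab-ASC libraries and 7.98, 8 and 9.5 CPM in the Sub-ASC libraries, 27.7-fold higher, Txnrd1 (2.27), Srxn1 (1.17) and Slc7a11 (1.07) moved with it, and Hmox1 was at 1258, 1101 and 1175 CPM in the Ab-ASC libraries and 521, 508 and 520.3 CPM in the Sub-ASC libraries. Gclc, another target, did not pass the test at 109.7 ± 5.88 CPM in Sub-ASCs and 104 ± 5.35 CPM in Ab-ASCs, and Nfe2l2, the gene of NRF2, was among the genes closest to equal, at 232 ± 8.39 CPM in Sub-ASCs and 231 ± 6.46 CPM in Ab-ASCs. Lower were the secreted Gpx3, at 3313 ± 92.2 CPM in Sub-ASCs and 237 ± 25.4 CPM in Ab-ASCs, and Sod3, at 217, 220.3 and 219.7 CPM in the Sub-ASC libraries and 75.9, 77 and 72.9 CPM in the Ab-ASC libraries, and the metallothioneins Mt1, at 1124, 1259 and 1106 CPM in the Sub-ASC libraries and 395, 307 and 324 CPM in the Ab-ASC libraries, and Mt2, at 137 ± 15.7 CPM in Sub-ASCs and 26.5 ± 7.24 CPM in Ab-ASCs.

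Imprinted genes, expressed from a single parental copy, gave 9 higher and 6 lower of 19 tested. The genes of the cluster on chr12:109452823-109749460 were higher together in Ab-ASCs. Meg3 was at 79.3, 104 and 107 CPM in the Ab-ASC libraries and 27.6, 25.8 and 22.8 CPM in the Sub-ASC libraries, Rian at 18.3 ± 0.304 CPM in Sub-ASCs and 187 ± 12.6 CPM in Ab-ASCs, Mirg at 0.522 ± 0.152 CPM in Sub-ASCs and 5.92 ± 0.494 CPM in Ab-ASCs and Dlk1 at 3.45, 3.73 and 3.55 CPM in the Ab-ASC libraries and 0.453, 0.455 and 0.44 CPM in the Sub-ASC libraries. The paternally expressed Dlk1 and the maternally expressed noncoding Meg3, Rian and Mirg thus lay on the same side. H19 was lower, at 6.75, 5.65 and 5.76 CPM in the Sub-ASC libraries and 2, 2.1 and 2.95 CPM in the Ab-ASC libraries, Peg3 lower at -0.90, and Igf2 too low to test, with 2, 3 and 5 reads in Sub-ASC and 0, 4 and 3 in Ab-ASC libraries. Among 5 oncofetal genes tested, Hmga2, a chromatin protein of embryonic and growing mesenchyme, was at 365, 412 and 404 CPM in the Ab-ASC libraries and 39.6, 45.3 and 38.2 CPM in the Sub-ASC libraries, 9.59-fold higher in Ab-ASCs, and Hmga1 was at 1.67. Igf2bp1, at 0.257 ± 0.0426 CPM in Sub-ASCs and 1.53 ± 0.0516 CPM in Ab-ASCs, was higher while Igf2bp2 and Igf2bp3 were lower (-0.99 and -1.26), and Lin28b had 0 reads in every library. Igf2bp3 overlaps Malsu1 on the opposite strand. Of 13 skeletal genes listed, 7 could be tested, 5 were higher and 1, the matrilin gene Matn2 (-1.72), was lower. Sox9, which directs cartilage, was at 33.2, 38.8 and 39.2 CPM in the Ab-ASC libraries and 17.3, 15.5 and 14.6 CPM in the Sub-ASC libraries, Runx2, which directs bone, at 38.2, 41.6 and 46.6 CPM in the Ab-ASC libraries and 18.5, 22.5 and 21 CPM in the Sub-ASC libraries, and Sp7 (osterix) at 7, 7.3 and 8.17 CPM in Ab-ASCs and 0, 0 and 2 reads in Sub-ASC libraries, whereas Col2a1, Bglap and Ibsp, which mark mature cartilage and bone, were too low to test.

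**Figure D5:**
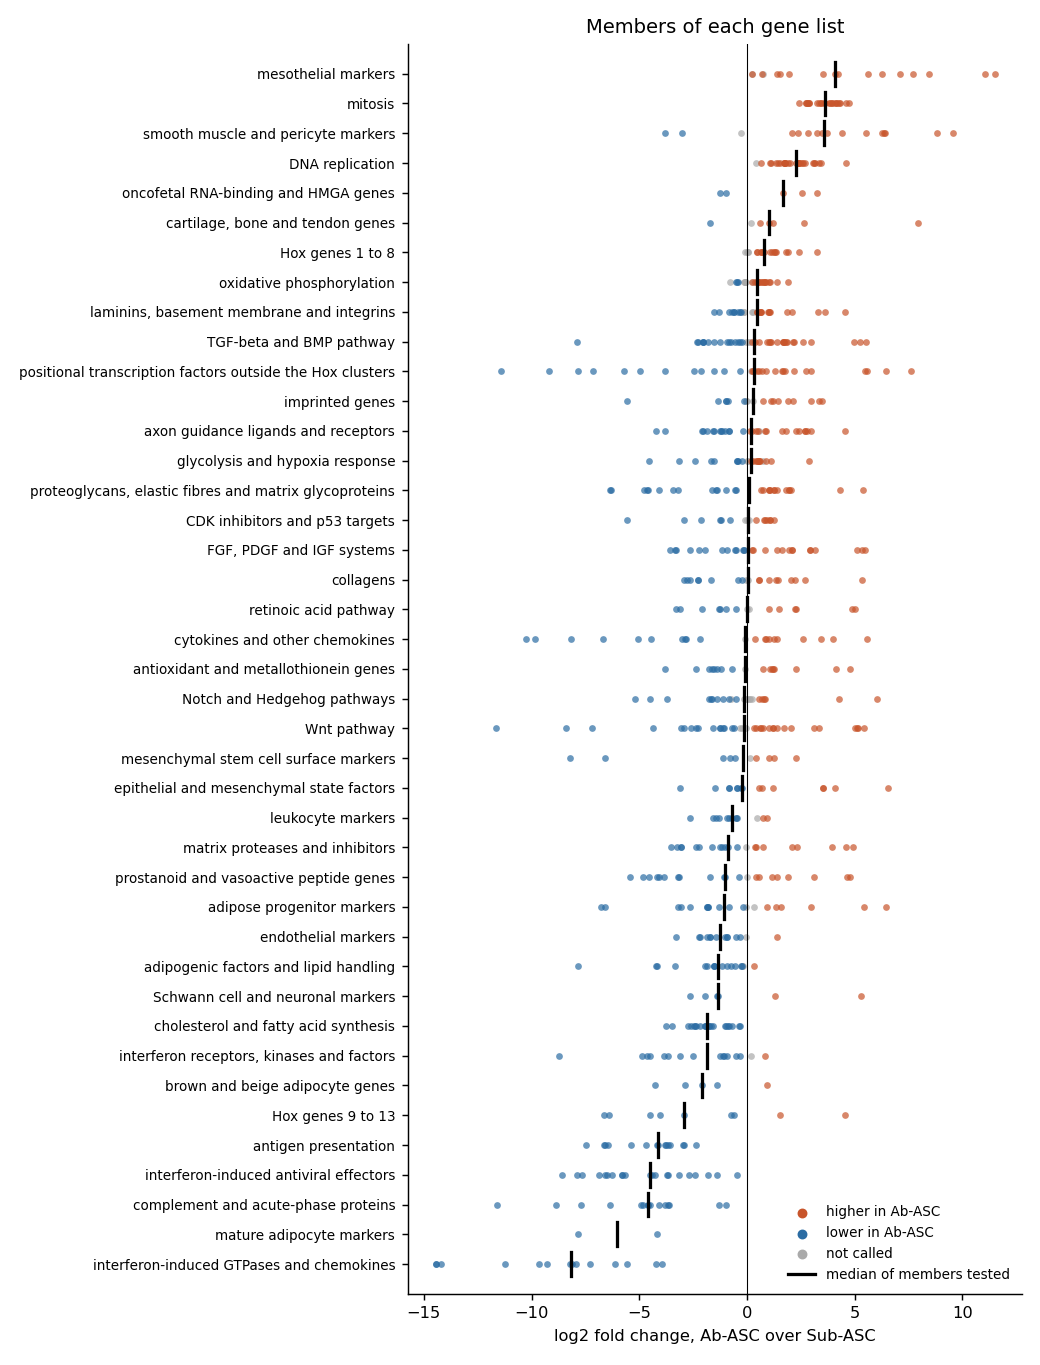
Log2 fold change of Ab-ASCs over Sub-ASCs for each member tested of the 41 gene lists, ordered by their medians (black bars), coloured by the quasi-likelihood call at an adjusted p under 0.05. Interferon, complement, adipocyte and lipid synthesis lists lie to the left, mesothelial, mitosis, smooth muscle and replication lists to the right, and most signalling and matrix lists spread over both sides.

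Over all protein-coding genes with at least 10 CPM in the higher group, those with the largest folds included several outside the lists. Higher in Ab-ASCs was Cck, the peptide cholecystokinin of gut and brain, at 874, 686 and 721 CPM in the Ab-ASC libraries and 3.17, 2.31 and 3.19 CPM in the Sub-ASC libraries. Nptx2, a neuronal pentraxin, was at 24.2, 20.5 and 23.7 CPM and had 0 reads in Sub-ASCs (at least 197-fold higher). Tnfsf15, a TNF family cytokine, was at 90.3, 169 and 144 CPM in the Ab-ASC libraries and 0.165, 0.114 and 0.33 CPM in the Sub-ASC libraries, and Asic3, an acid-sensing ion channel, at 56.3, 55.1 and 58.3 CPM in the Ab-ASC libraries and 0.123, 0.228 and 0.33 CPM in the Sub-ASC libraries. Lower in Ab-ASCs was Chl1, a neural adhesion molecule, at 633, 699 and 617 CPM in Sub-ASCs and 0, 0 and 0.171 CPM in Ab-ASCs, and Galnt13, a glycosyltransferase, had 0 reads in Ab-ASCs and 14.3, 14 and 12.9 CPM in Sub-ASCs. Cpxm1, a carboxypeptidase-like secreted protein named for its difference in FPKM and not its fold, was at 2793, 2638 and 2870.2 CPM in the Sub-ASC libraries and 62.7, 64.7 and 57.3 CPM in the Ab-ASC libraries. Groups did not overlap in any of these genes.

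For some of these genes the PVASC libraries, scaled with the other 6, may be set beside them as mean FPKM. Cck was at 613 in Ab-ASCs, 41.6 in PVASCs and 2.3 in Sub-ASCs. Asic3 was at 24.5 in Ab-ASCs, 1.41 in PVASCs and 0.0974 in Sub-ASCs. In contrast, Spp1 was at 4595 in Ab-ASCs, 6263 in PVASCs and 108 in Sub-ASCs, and B2m at 444 in Ab-ASCs, 483 in PVASCs and 6203 in Sub-ASCs. These are levels side by side, with no test against PVASCs. Among genes closest to equal between the depots were Twf1 and Arpc3, which act on actin, and Mdh1, a malate dehydrogenase, with log2 fold changes of 0.00 (SE 0.0891), -0.00 (SE 0.088) and -0.00 (SE 0.0889).

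Noncoding genes of the lincRNA and antisense classes past the 2-fold test were also found. D030025P21Rik was at 18.3, 18.3 and 19.1 CPM in the Ab-ASC libraries and 0.411, 0.455 and 0.403 CPM in the Sub-ASC libraries, but it lies opposite Ltbp2, which was higher as well, and without a stated strand setting their reads cannot be told apart. Gm32255 was at 7.25, 6.74 and 9.03 CPM in Ab-ASCs with 0 reads in Sub-ASCs. Gm15987 was the reverse, at 6.38, 6.26 and 5.57 CPM in Sub-ASCs with 0 reads in Ab-ASCs, and it overlaps Clec2g. By class, 58 of 353 lincRNAs were higher and 78 lower in Ab-ASCs by the 2-fold test (16.4% and 22.1%), next to 1682 and 2181 of 13437 protein-coding genes (12.5% and 16.2%). Gm45716, the coding gene model among the 12 with the largest folds, at 0.203 ± 0.0783 CPM in Sub-ASCs and 99.7 ± 10.4 CPM in Ab-ASCs, lies within Mmd on the same strand, so that its reads may be shared.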

How the data were processed

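mRNA was sequenced from cultured ASCs of each depot, with 3 libraries per group. The authors deposited raw counts of reads per gene and library, with gene lengths and positions, without normalization or filtering. The submitters' processing notes name CASAVA 1.8, Bowtie 0.12.2, featureCounts 1.5.0-p3 and the builds mm8 and mm10, while the strand setting and the annotation release are not given in the sources used here. For 15004 of 15631 tested genes (96%), the deposited position equalled that in GENCODE M21 on GRCm38. Reads were assigned to genes by the authors, so near-identical and overlapping genes may share them.

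Groups were taken from the sample titles. The 6 libraries were fitted with edgeR 4.0.16 in R 4.3.3, with low counts removed by filterByExpr, TMM scaling and no covariates. The quasi-likelihood F-test, and a test against a fold of 2 (glmTreat), were adjusted by Benjamini-Hochberg with a threshold of 0.05. The procedure was tested on simulated data. CPM used TMM-scaled library sizes, and FPKM also the deposited gene length. Means are given ± SD over 3 libraries. Against a group with 0 reads, the fold was computed with 3 reads in each of its libraries, and with few reads the ratio has an exact conditional (Clopper-Pearson) 95% interval, which covers counting error only (SciPy 1.17.1). The alternatives were DESeq2 1.42.0, limma 3.58.1 voom with group weights, RLE size factors, a replicate block, all 9 libraries in the fit, the counts unfiltered, a minimum of 10 reads in every library, and the omission of each library.

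The 41 lists (828 genes) and the rule for naming genes were chosen with earlier results of these data known. The rule takes the core genes of each list, its largest changes in either direction, the genes with the largest folds and FPKM differences over all genes, those at or near 0 in a group, and those closest to equal. Some members outside the rule are named to complete a list and were chosen after their values were seen, as were the smaller groupings within a list, and some genes that it takes are not reported here. Promoters came from the RefSeq table by symbol, and printed ones are the members of a list with a match and the highest CPM.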

Additional observations from a re-analysis of the deposited data

How the results depend on the processing

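The counts over all genes stayed within 1.5 times under every alternative run, except that 1666 genes were lower by the 2-fold test where at least 10 reads were required in every library, a filter that removes genes absent from a group. No gene named by the rule that passed the test changed sign. The replicate numbers of the groups did not pair the libraries, with correlations of deviations of 0.028, 0.133 and -0.0748 for the same number, and not every library correlated best with its own number. With a replicate block 11534 genes were called, 5535 higher and 5999 lower. Without single libraries 11055 to 12272 genes were called, and 4212 to 4543 by the 2-fold test.

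With at least 10 reads in every library, fewer genes could be tested, and the members lower in Ab-ASCs were 8 interferon-induced GTPases and chemokines, 6 cytokines, 2 brown and beige genes, 6 positional factors, 1 Schwann or neuronal marker, 0 smooth muscle markers and 0 mature adipocyte markers. Those higher were 5 mesothelial markers, 4 epithelial and mesenchymal state factors, 1 Hox gene numbered 9 to 13 and 3 skeletal genes. Under the same filter the medians of cytokines (0.81), collagens (-0.05), the Wnt pathway (0.26), the FGF, PDGF and IGF systems (-0.19) and Schwann and neuronal markers (1.26) turned sign. Without single libraries, those of cytokines ranged from -0.39 to 0.23, of the Wnt pathway from -0.13 to 0.06 and of epithelial and mesenchymal state factors, at -0.24 in the report's fit, from -0.24 to 0.20. The last was also 0.18 with all 9 libraries and 0.67 without a filter. Interferon receptors, kinases and factors higher in Ab-ASCs were 2 with all 9 libraries, with RLE size factors and without Ab-ASC replicate 1, and 1 to 2 over the libraries left out. Without a filter, 1 Hox gene numbered 1 to 8 was lower. Lower epithelial and mesenchymal state factors ranged from 5 to 8 without single libraries. Of the genes named by the rule, Kdr, Sox10, Sema3a, Cdh11 and mt-Co1 lost the call, and Jag1, Ptch1 and Zfr gained it, under at least 1 alternative, where the cause was not tested.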
